A study of Mus musculus with 12 samples.

Results

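Among the protein-coding genes of the mouse liver there is a small set that was close to silent on a standard diet and was read clearly on a diet that gives fatty liver. The set was chosen from raw read counts. A protein-coding gene entered it if its counts summed to at most 6 over the 3 libraries of the standard diet (SD) and to at least 40 over the 3 libraries of the MASLD diet (metabolic dysfunction-associated steatotic liver disease). Of 21974 protein-coding genes in the table, 46 met both conditions. Because those counts chose the genes, the difference between MASLD and SD is the rule itself, and its values here are a description that supports nothing. What the rule did not use is the level of the 46 genes in livers of mice on the MASLD diet that also received Aza-TdC, and that level is the subject here.

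The mice were of the C57BL/6 strain, and their livers gave 4 groups with 3 RNA-seq libraries each: MASLD diet alone, MASLD diet with Aza-TdC at a relative dose of 0.1x (0.1xAZA), MASLD diet with Aza-TdC at a relative dose of 1x (1xAZA), and SD alone. Both treated groups thus shared the MASLD diet with the untreated MASLD group. The series is about DNMT1, the enzyme that copies DNA methylation onto newly made strands, in MASLD; Aza-TdC is a deoxycytidine analogue that depletes DNMT1 after it is built into DNA. The labels give neither absolute doses, nor the composition of the diet, nor age or sex, and leave it unsaid whether each library of a group is another animal, so the p-values here cover the spread between libraries, which may be technical.

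Depth ran from 30213048 to 41852606 counts per library, and the groups held 102465935 (MASLD), 95176538 (0.1xAZA), 119780218 (1xAZA) and 111160823 (SD) counts in all. Alb, the serum albumin gene of hepatocytes, took 6.3 to 10.9% of the counts of every library, as is usual in liver. All 46 genes were rare even where they were on. Together they held 3671 counts in MASLD, 1447 in 0.1xAZA, 1502 in 1xAZA and 133 in SD. The raw sums are not scaled to depth, which was greatest in 1xAZA. Scaled to library size, in CPM, the sums were 32.4 ± 12.3 in MASLD and 1.39 ± 0.464 in SD (mean ± standard deviation, n = 3). They were 15.2 ± 1.91 in 0.1xAZA and 12.1 ± 3.27 in 1xAZA, in the other order than the raw sums. The libraries of the doses overlapped, with 13.2 to 17 CPM in 0.1xAZA and 9.14 to 15.6 CPM in 1xAZA. Of the 46 genes, 39 passed the filter on low counts and were tested; Insyn1, Mmp7, Cldn4, Stc2, Sybu, Cpb1 and Cenpe did not pass.

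A gene can be silent in a tissue because its activators are missing or because its chromatin is closed. In mammals, promoters dense in CpG dinucleotides are mostly free of DNA methylation, while promoters poor in CpG are often methylated where the gene is off. A fatty liver also differs from a lean one in its cell makeup and in the lipid load of its hepatocytes. In bulk tissue, fewer cells of a type and less RNA per cell cannot be told apart, and this holds for every level below.

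The rule sets how the levels under treatment can be read. A gene enters the set more easily when chance or 1 unusual library raised its MASLD counts, so on selection alone the same gene is on average lower in any other libraries of the same diet. Every difference between a treated group and MASLD is therefore biased downwards, and every difference from SD is biased upwards by the choice of low SD counts. These differences are given as descriptions. The calls of a test in these comparisons are printed as descriptions too. Only 1xAZA against 0.1xAZA sets no library of the rule on either side, although the MASLD and SD libraries enter its filter on low counts and its estimate of spread.

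Promoter windows of 300 bases (250 before to 50 after an annotated start) were taken from RefSeq, build GRCm38.p6, the assembly also called mm10. There were 42 windows for 39 of the 46 genes. The windows of the 4 genes that lead the set by a level against 0 SD counts (Aqp7, Ucp3, Tinag and Spire2) are shown with those of Elovl7 and Scnn1g, which are described below, because they differ widely in CpG content. The set also holds windows with more CpG, such as that of Insyn1 with 35. Capitals mark each CpG dinucleotide, and all are written 5′ to 3′ on the strand of the gene.
Aqp7, chr4:41048087-41048386, minus strand: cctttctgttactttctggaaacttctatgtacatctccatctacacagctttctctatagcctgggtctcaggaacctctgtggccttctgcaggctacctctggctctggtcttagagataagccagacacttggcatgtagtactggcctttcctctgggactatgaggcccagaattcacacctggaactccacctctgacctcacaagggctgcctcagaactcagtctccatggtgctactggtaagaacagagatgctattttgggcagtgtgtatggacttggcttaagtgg
Ucp3, chr7:100472741-100473040, plus strand: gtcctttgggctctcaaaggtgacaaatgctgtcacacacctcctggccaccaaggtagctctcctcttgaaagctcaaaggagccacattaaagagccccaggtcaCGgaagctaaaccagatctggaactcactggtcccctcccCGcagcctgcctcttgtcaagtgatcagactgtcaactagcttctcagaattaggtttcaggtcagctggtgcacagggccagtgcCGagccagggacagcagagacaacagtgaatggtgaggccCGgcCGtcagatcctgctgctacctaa
Tinag, chr9:77045732-77046031, minus strand: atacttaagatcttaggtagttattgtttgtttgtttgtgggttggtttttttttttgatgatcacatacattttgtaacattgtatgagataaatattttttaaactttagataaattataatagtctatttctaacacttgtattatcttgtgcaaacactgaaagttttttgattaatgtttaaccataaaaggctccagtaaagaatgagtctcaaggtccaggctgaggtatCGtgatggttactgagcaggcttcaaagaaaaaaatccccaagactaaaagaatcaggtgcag
Spire2, chr8:123332463-123332762, plus strand: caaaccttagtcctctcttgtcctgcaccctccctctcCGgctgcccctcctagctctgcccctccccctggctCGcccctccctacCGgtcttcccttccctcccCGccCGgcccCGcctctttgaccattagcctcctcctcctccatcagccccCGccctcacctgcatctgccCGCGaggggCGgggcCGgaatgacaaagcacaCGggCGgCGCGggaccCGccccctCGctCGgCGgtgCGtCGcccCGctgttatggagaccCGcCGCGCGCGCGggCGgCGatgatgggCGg
Elovl7, chr13:108214154-108214453, plus strand: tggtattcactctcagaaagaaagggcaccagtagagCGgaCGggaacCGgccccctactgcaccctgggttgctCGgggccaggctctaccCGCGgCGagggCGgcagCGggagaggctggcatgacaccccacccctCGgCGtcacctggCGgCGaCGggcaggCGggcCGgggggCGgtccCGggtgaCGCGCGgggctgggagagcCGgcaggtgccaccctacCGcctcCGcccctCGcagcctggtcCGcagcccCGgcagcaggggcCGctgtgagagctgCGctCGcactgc
Scnn1g, chr7:121734229-121734528, plus strand: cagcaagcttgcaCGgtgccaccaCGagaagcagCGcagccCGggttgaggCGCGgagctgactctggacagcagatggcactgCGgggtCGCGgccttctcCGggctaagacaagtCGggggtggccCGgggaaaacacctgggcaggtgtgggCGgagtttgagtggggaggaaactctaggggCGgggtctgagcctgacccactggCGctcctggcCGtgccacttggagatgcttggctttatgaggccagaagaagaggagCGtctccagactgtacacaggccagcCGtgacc

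The 6 windows hold 0 CpG (Aqp7), 5 (Ucp3), 1 (Tinag), 31 (Spire2), 30 (Elovl7) and 18 (Scnn1g). Aqp7 has a second annotated window that holds 3. The set as a whole lay between silent and active genes in this respect. Its median ratio of observed to expected CpG was 0.327, with a median of 7.5 CpG per window, against 0.239 and 4 in the 6682 windows of other genes with at most 6 SD counts and 0.728 and 19 in the 13305 windows of genes with more than 6 SD counts. A ratio of at least 0.6 was found in 33.3% of the windows of the set, 18.7% of those of other genes silent in SD and 64.7% of those of genes read in SD.

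**Figure D1:**
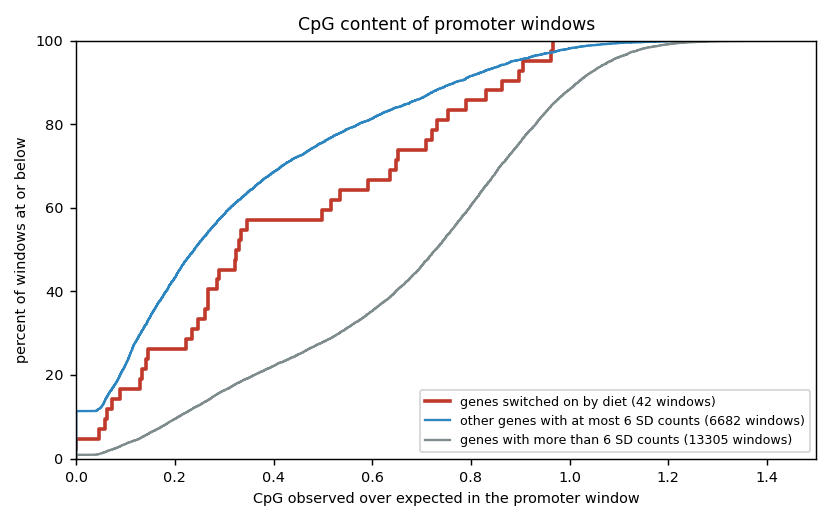
Cumulative share of promoter windows (vertical axis, percent) at or below a given ratio of observed to expected CpG (horizontal axis), for the genes switched on by diet (42 windows), other genes with at most 6 SD counts (6682) and genes with more than 6 SD counts (13305). The curve of the set runs between the other curves over most of the axis, with medians of 0.327, 0.239 and 0.728 in that order.

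Short motifs were searched in the same windows on both strands. The TATA box TATAAA was in 14.3% of the 42 windows, against 12.6% of all 21263 windows of protein-coding genes. The E-box CACGTG was in 7.14%, against 7.84% of all windows. The nuclear receptor hexamer AGGTCA was in 19%, against 14.7%, and it occurs in the windows of Aqp7 and Ucp3 shown above. The DR1 element, that hexamer repeated in the same direction after 1 base, is the form that PPAR receptors bind. It was in 0 of the 42 windows and in 0.047% of all windows, and its looser form with the hexamer AGGNCA was in 0 and in 0.353%. A window without these letters says nothing about binding elsewhere.

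Genes of lipid handling numbered 6 (all groupings by function here were made with the genes known). Aqp7, the aquaglyceroporin that lets glycerol cross cell membranes, had the most counts of the set in all 3 groups on the MASLD diet. It had 101, 203 and 72 counts in MASLD samples 3, 4 and 5, 70, 63 and 53 in 0.1xAZA samples 1, 3 and 4, 34, 90 and 126 in 1xAZA samples 2, 4 and 5, and 0 in every SD sample. Scaled to library size, in CPM, this was 3.31 ± 1.71 in MASLD, 1.95 ± 0.217 in 0.1xAZA and 2.07 ± 1.31 in 1xAZA (here and below ± is the standard deviation, n = 3). All 9 libraries on the MASLD diet stood far above SD, and the treated libraries overlapped those of MASLD. Per kilobase of exon, Aqp7 stood at 1.17 CPM in MASLD, below the 1.93 CPM of the short gene Sprr1a. The next folds take its counts as read and set a floor of 3 counts over the SD group. By them Aqp7 was at least 106-fold higher in MASLD, at least 62.0-fold higher in 0.1xAZA and at least 62.5-fold higher in 1xAZA. The doses did not differ by the test (log2 fold change of 1xAZA over 0.1xAZA 0.07 ± 0.47 (SE), adjusted p = 0.938, edgeR quasi-likelihood test). The sign of that fold change turned without 0.1xAZA sample 4 (−0.0010) or without 1xAZA sample 5 (−0.45).

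Ucp3, a mitochondrial carrier protein best known from muscle and brown fat, was even on the diet. Its counts were 42, 41 and 39 in the MASLD samples, 18, 9 and 14 in the 0.1xAZA samples, 5, 5 and 21 in the 1xAZA samples and 0 in each SD sample. Every treated library lay below every MASLD library. The mean was 1.08 ± 0.0728 CPM in MASLD, 0.431 ± 0.142 CPM in 0.1xAZA (39.8% of the MASLD mean) and 0.26 ± 0.256 CPM in 1xAZA (24.0%). The difference between the doses was within their spread (log2 fold change −0.76 ± 0.60 (SE), adjusted p = 0.426).

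Elovl7, an elongase of fatty acids, was the gene of this theme that came closest to silence again under treatment. It had 38, 79 and 17 counts in MASLD, 0, 2 and 4 in 0.1xAZA, 3, 1 and 6 in 1xAZA and 1, 0 and 1 in SD. The treated means were 5.45% (0.1xAZA) and 6.95% (1xAZA) of the MASLD mean, and the treated and SD counts were within a few reads of each other. Fabp3, the fatty acid binding protein of heart and muscle, had 66, 29 and 10 counts in MASLD, 1, 2 and 12 in 0.1xAZA, 1, 3 and 11 in 1xAZA and 1, 0 and 0 in SD, so that the lowest MASLD library fell among the treated ones. Slc27a3, an acyl-CoA synthetase of the fatty acid transport protein family, held 17, 18 and 16 counts in MASLD, 2, 5 and 4 in 0.1xAZA, 12, 5 and 8 in 1xAZA and 3, 0 and 2 in SD. Far2, a reductase that makes fatty alcohols, held 46 counts in MASLD, 16 in 0.1xAZA, 31 in 1xAZA and 2 in SD. Summed over these 6 genes, the level was 7.38 ± 2.64 CPM in MASLD, 2.89 ± 0.22 CPM in 0.1xAZA and 2.99 ± 1.84 CPM in 1xAZA.

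**Figure D2:**
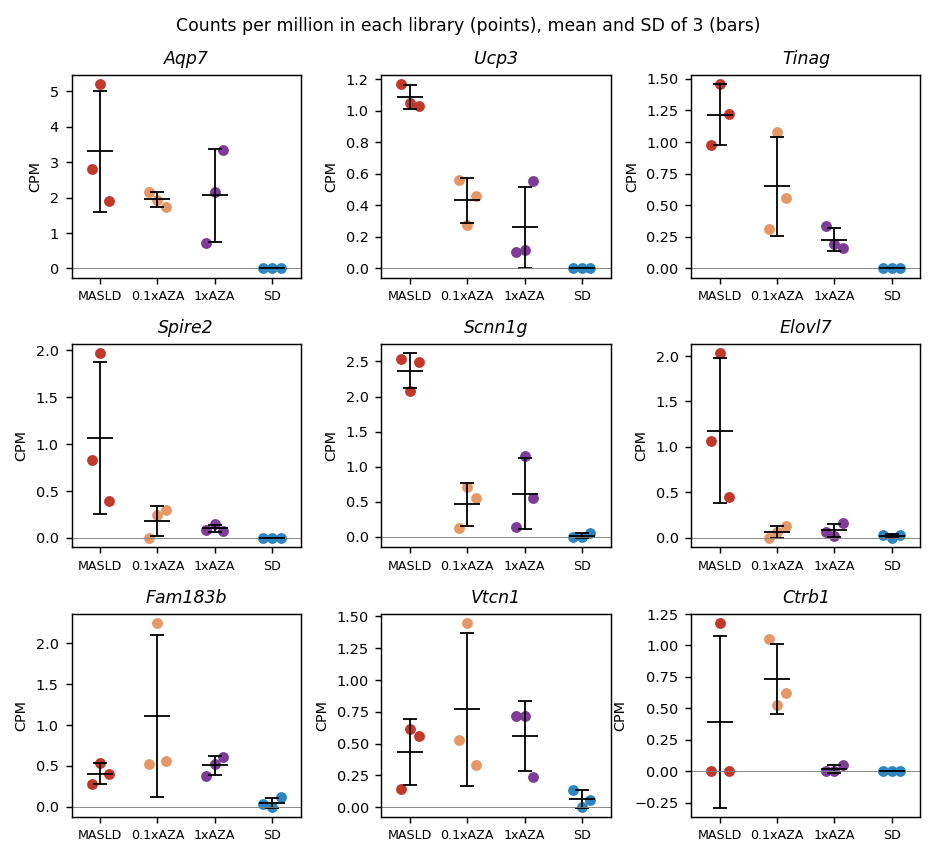
Level in CPM (vertical axis of each panel, counts scaled to library size) of 9 genes in the 12 libraries (points), with the mean and standard deviation of each group of 3 (bars). The mean of Aqp7 is near 2 CPM at both doses, with a wide spread in 1xAZA. Elovl7 and Spire2 lie near 0 at both doses, Fam183b has 1 high 0.1xAZA library, and Ctrb1 is on in 1 MASLD library and in all 3 of 0.1xAZA.

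Genes of epithelial transport and surface receptors numbered 5. Scnn1g encodes the gamma subunit of the epithelial sodium channel. It had 91, 81 and 94 counts in MASLD, 4, 23 and 17 in 0.1xAZA, 7, 48 and 21 in 1xAZA and 0, 0 and 2 in SD. All 6 treated libraries lay below all 3 MASLD libraries and above all 3 SD libraries. The ratio of MASLD to SD was 112, with a 95% counting interval of 30.8 to 933, since SD held 2 counts. Scnn1b, the beta subunit of the same channel and not a gene of the set, had at most 3 counts in any library. Scnn1a, the alpha subunit and also outside the set, went the other way on the diet. Its level was 27.9 ± 4.86 CPM in SD, 6.75 ± 2.46 CPM in MASLD, 9.32 ± 4.28 CPM in 0.1xAZA and 14.5 ± 1.36 CPM in 1xAZA. Between the doses Scnn1g gave a log2 fold change of 0.40 ± 0.64 (SE, adjusted p = 0.718), whose sign turned without 0.1xAZA sample 1 (−0.05) or without 1xAZA sample 4 (−0.43).

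Sprr1a, a small proline-rich protein of stressed and cornifying epithelium, had 90, 51 and 32 counts in MASLD, 0, 4 and 17 in 0.1xAZA, 0, 0 and 4 in 1xAZA and 0, 0 and 2 in SD. At 1x it was thus read in 1 library of 3. Ptgfr, the receptor of prostaglandin F2 alpha, had 75, 59 and 40 counts in MASLD, 1, 42 and 22 in 0.1xAZA, 29, 25 and 14 in 1xAZA and 0, 5 and 1 in SD. Amn, the partner of cubilin in the uptake of vitamin B12, was even in MASLD with 15, 15 and 16 counts, and had 6, 9 and 8 in 0.1xAZA, 6, 9 and 12 in 1xAZA and 4, 1 and 1 in SD. Cldn4, a claudin of tight junctions that is also a marker of bile duct cells, had 2, 51 and 2 counts in MASLD, so that 1 library brought it into the set.

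Matrix proteins and their enzymes, with the protease Corin placed beside them, gave 5 genes. Tinag, a basement membrane protein known from kidney tubules, had 35, 57 and 46 counts in MASLD, 10, 35 and 17 in 0.1xAZA, 16, 8 and 6 in 1xAZA and 0 in each SD sample. Its mean stood at 53.2% of MASLD in 0.1xAZA and at 18.8% in 1xAZA, and all 1xAZA libraries lay below all MASLD libraries. The log2 fold change between the doses was −1.47 ± 0.51 (SE) with an adjusted p of 0.0755, which does not pass. DESeq2 gave an adjusted p of 0.0472 for it, and without 0.1xAZA sample 1 the edgeR value was 0.0484; over all alternatives that value ran up to 0.885. Tinagl1, the relative of Tinag, was read in SD as well, with 716, 750 and 754 counts in MASLD and 419, 359 and 504 in SD.

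Corin, the protease that activates atrial natriuretic peptide, was even in every group, with 29, 21 and 23 counts in MASLD, 7, 12 and 10 in 0.1xAZA, 10, 10 and 8 in 1xAZA and 0, 1 and 0 in SD. The treated libraries lay between those of MASLD and SD with no overlap on either side. The collagenase Mmp13 and the matrilysin Mmp7 lie 408759 bases apart on chromosome 9. Mmp13 had 10, 34 and 11 counts in MASLD, 21 in all in 0.1xAZA and 18 in 1xAZA. Mmp7 had 8, 53 and 8 counts in MASLD, 0, 6 and 6 in 0.1xAZA and 11, 9 and 24 in 1xAZA, where every library lay above those of 0.1xAZA. Ccn5, a secreted protein of the CCN family, held 58 counts in MASLD, 18 in 0.1xAZA, 34 in 1xAZA and 6 in SD.

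Genes of the cytoskeleton, vesicles and signalling numbered 7. Spire2, an actin nucleator, had 30, 77 and 15 counts in MASLD, 0, 8 and 9 in 0.1xAZA, 4, 6 and 3 in 1xAZA and 0 in each SD sample. All treated libraries lay below all MASLD libraries, at 16.9% (0.1xAZA) and 9.59% (1xAZA) of the MASLD mean. The log2 fold change between the doses was −0.79 ± 0.94 (SE, adjusted p = 0.615). Shc2, an adaptor of receptor tyrosine kinases, was flat across the doses, with 8, 6 and 13 counts in 0.1xAZA and 12, 14 and 10 in 1xAZA, and had 39, 79 and 23 in MASLD and 1, 0 and 0 in SD. Its log2 fold change between the doses was −0.01 ± 0.56 (SE, adjusted p = 0.996), which leaves room for a change of about 1 log2 unit either way.

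A divergent noncoding gene, Gm47163, overlaps Shc2 on the other strand, and it had 37 counts in MASLD, 16 in 0.1xAZA, 8 in 1xAZA and 0 in SD. Rims2, a scaffold of vesicle release sites in neurons, had 64 counts in MASLD, 36 in 0.1xAZA, 48 in 1xAZA and 3 in SD. Myo15b, an unconventional myosin, had 52, 40, 30 and 0 in that order, and Arl11, an ARF-like GTPase, 56, 28, 24 and 4. Sybu, which links vesicles to a kinesin motor, had 9, 30 and 8 counts in MASLD, 0, 2 and 3 in 0.1xAZA, 10, 13 and 10 in 1xAZA and 1, 0 and 0 in SD. It was the clearest case of a gene lower at 0.1x than at 1x, but it did not pass the filter on low counts and was not tested.

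Cell division gave 6 genes: Pbk, a mitotic kinase; Cenpe and Cenpf, proteins of the kinetochore; Ckap2, a protein of the spindle; Kif4, a motor of mitotic chromosomes; and Iqgap3, a scaffold found in dividing cells. Their summed level was 2.62 ± 0.419 CPM in MASLD, 0.886 ± 0.365 CPM in 0.1xAZA, 1.01 ± 0.248 CPM in 1xAZA and 0.299 ± 0.155 CPM in SD. Pbk had 12, 26 and 11 counts in MASLD, 0, 1 and 2 in 0.1xAZA, 6, 5 and 2 in 1xAZA and 2, 0 and 1 in SD. Kif4 kept most of its level, with 23, 8 and 11 counts in MASLD, 5, 11 and 7 in 0.1xAZA and 10, 23 and 10 in 1xAZA. The other 4 genes held 40 to 68 counts in MASLD, 8 to 26 in 0.1xAZA and 10 to 35 in 1xAZA. In a list of cell cycle genes, 29 were tested outside the set, of which 16 were higher and 1 lower in MASLD than in SD, with a median log2 fold change of 1.4, against 0.03 over all genes tested. Between the doses 0 of the 29 passed with edgeR or with DESeq2 and 2 had an unadjusted p under 0.05, with a median of −0.19. Over all genes tested, 15.6% were higher and 13.9% lower in MASLD than in SD, and 13% were called between the doses.

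Genes of digestion in the pancreas formed a group of their own. Pnlip is pancreatic lipase, Ctrb1 is a chymotrypsinogen, and Cpa1 and Cpb1 are carboxypeptidases, all made by acinar cells. Pnlip had 0, 84 and 0 counts in MASLD, 27, 11 and 18 in 0.1xAZA, 0, 0 and 3 in 1xAZA and 0 in each SD sample. Ctrb1 had 0, 46 and 0 counts in MASLD, 34, 17 and 19 in 0.1xAZA, 0, 0 and 2 in 1xAZA and 0 in SD. Cpa1 had 0, 40 and 1 in MASLD, 16, 0 and 10 in 0.1xAZA and 0, 0 and 1 in 1xAZA, and Cpb1 had 0, 41 and 0 in MASLD, 12, 1 and 2 in 0.1xAZA and 0 in every library of 1xAZA. The 4 genes thus entered through MASLD sample 4 alone, while all 3 libraries of 0.1xAZA held at least 3 of them.

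Other acinar genes that are not in the set were read in the same libraries. Prss2, a trypsinogen, had 30 counts in MASLD sample 4, 14, 5 and 8 in 0.1xAZA and 0 elsewhere, and Cela3b, an elastase, had 30 in MASLD sample 4, 6, 9 and 2 in 0.1xAZA and 0 elsewhere. Cela2a, another elastase, had 0, 28 and 0 counts in MASLD, 9, 2 and 4 in 0.1xAZA, 4, 6 and 5 in 1xAZA and 15, 3 and 7 in SD, so that it was read in SD and 1xAZA as well. Of an acinar list of 14 genes, Cela1 was read in every library, with 342 to 487 counts in MASLD and 1026 to 1426 in SD. Without Cela1, the list summed to 341 counts in MASLD sample 4 and to 0 and 1 in the other 2 MASLD libraries. It summed to 155, 46 and 73 in 0.1xAZA, 4, 6 and 12 in 1xAZA and 15, 3 and 7 in SD. Prss1 and Amy2a1 were at 0 in all libraries. The part of acinar RNA in the levels of these genes was not tested.

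**Figure D3:**
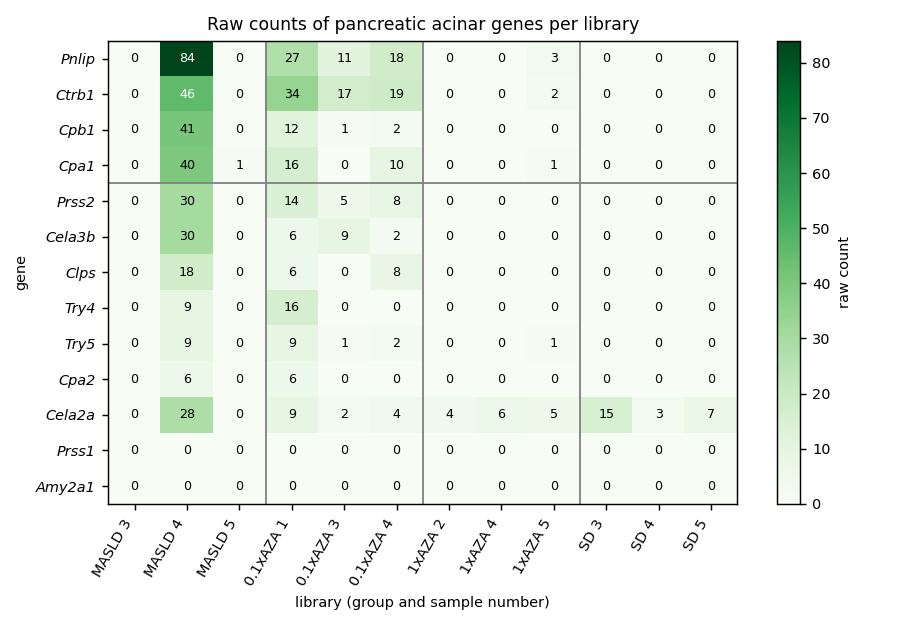
Raw counts (numbers and colour) of pancreatic acinar genes in the 12 libraries (horizontal axis); the upper 4 genes belong to the set, and the genes under them are the rest of the acinar list without Cela1. Apart from Cela2a, which has 4, 6 and 5 counts in 1xAZA and 15, 3 and 7 in SD, the genes have at most 3 counts in any library other than MASLD sample 4 and the 3 of 0.1xAZA.

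Of the remaining genes, 2 had higher means at both doses than on the diet alone, against the direction that the choice of genes favours. Fam183b had 10, 21 and 15 counts in MASLD, 17, 73 and 17 in 0.1xAZA, 18, 22 and 23 in 1xAZA and 1, 0 and 4 in SD. Its mean in 0.1xAZA was 275% of MASLD, and 1 library held most of that. Vtcn1, the inhibitor of T cells also called B7-H4, had 5, 24 and 21 counts in MASLD, 17, 47 and 10 in 0.1xAZA, 34, 30 and 9 in 1xAZA and 4, 0 and 2 in SD. Its treated means were 176% (0.1xAZA) and 128% (1xAZA) of MASLD. In both genes the treated and MASLD libraries overlapped. Hormad2, a protein of meiotic chromosomes, had 42 counts in MASLD, 28 in 0.1xAZA and 49 in 1xAZA.

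Chil3, a chitinase-like protein of alternatively activated macrophages whose close relatives can share its reads, had 9, 20 and 12 counts in MASLD, 16, 5 and 12 in 0.1xAZA and 10, 7 and 18 in 1xAZA. Its means under treatment were 96.5% (0.1xAZA) and 79.0% (1xAZA) of MASLD. Gm5431, a predicted gene on chromosome 11, had 23, 40 and 24 counts in MASLD, 35, 3 and 13 in 0.1xAZA, 41, 8 and 25 in 1xAZA and 1, 0 and 1 in SD. Stc2, the hormone stanniocalcin 2, had 47 counts in MASLD, 11 in 0.1xAZA, 18 in 1xAZA and 6 in SD. Meox1, a homeobox factor of mesoderm, had 49, 18, 21 and 3 in that order. The other genes not described (Mab21l3, Fsd2, BC035947, Tmem171, Bex4, Als2cr12 and Insyn1) had 41 to 75 counts in MASLD, 10 to 41 in 0.1xAZA and 6 to 34 in 1xAZA.

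**Figure D4:**
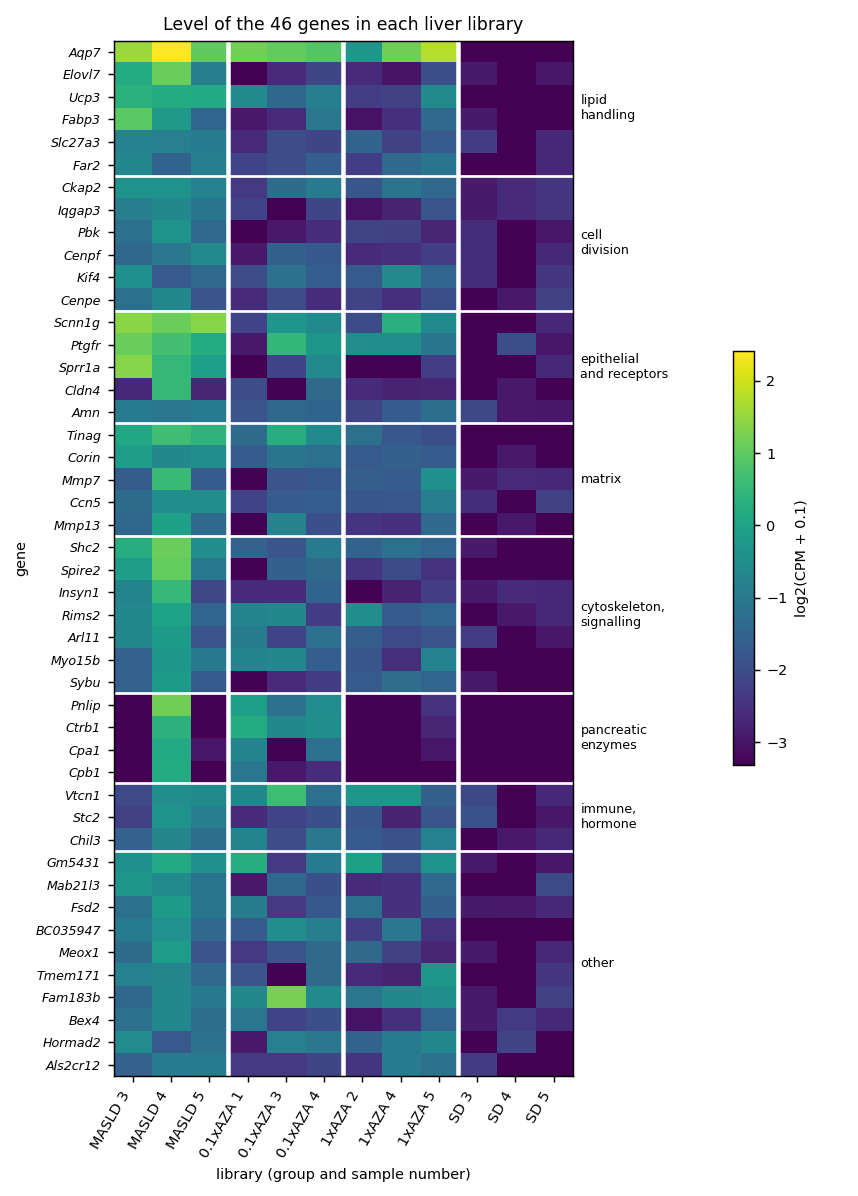
Level of each of the 46 genes (rows, grouped by known function) in each of the 12 libraries (columns), as log2(CPM + 0.1) in colour. MASLD sample 4 is the brightest column for most genes, the treated columns are intermediate, and the SD columns are dark because the rule chose genes with at most 6 counts there.

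Taken over all 46 genes, the same threshold of 40 counts that the rule set for MASLD was reached by 12 genes in 0.1xAZA and by 10 in 1xAZA. These are raw counts, and the groups differed in depth (95176538 counts in 0.1xAZA and 119780218 in 1xAZA). A threshold in counts is thus a lower level in 1xAZA than in 0.1xAZA. In 0.1xAZA these were Aqp7, Fam183b, Vtcn1, Ctrb1, Ptgfr, Tinag, Pnlip, Gm5431, Scnn1g, Ucp3, BC035947 and Myo15b. In 1xAZA they were Aqp7, Scnn1g, Gm5431, Vtcn1, Ptgfr, Fam183b, Hormad2, Rims2, Mmp7 and Kif4. Another 31 genes (0.1xAZA) and 30 genes (1xAZA) held between 7 and 39 counts. The level of silence set for SD, at most 6 counts, was met in 0.1xAZA by Elovl7, Pbk and Sybu and in 1xAZA by Cpb1, Sprr1a, Cpa1, Ctrb1, Insyn1 and Pnlip. No gene met it at both doses.

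The median gene stood at 44.2% of its MASLD mean in 0.1xAZA and at 34.1% in 1xAZA. In all, 10 genes kept at least 50% of their MASLD mean at both doses (Aqp7, Gm5431, Rims2, Myo15b, Vtcn1, Amn, Fam183b, Hormad2, Kif4 and Chil3). At the other end, 8 genes were under 25% at both doses (Sprr1a, Shc2, Elovl7, Spire2, Fabp3, Insyn1, Iqgap3 and Pbk). Genes with a CpG ratio of at least 0.6 in a promoter window (14 genes) had median levels of 26.1% and 21.3% of MASLD at 0.1x and 1x, and genes below that ratio (25 genes) had 53.2% and 33.9%. The ranges overlapped, with 5.45 to 81.9% and 14.6 to 275% at 0.1x and 3.68 to 90.3% and 0 to 128% at 1x, and the difference was not tested.

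The dose comparison has neither MASLD nor SD on its sides, but most of the set is too rare in the treated livers to be tested there alone. When the filter on low counts saw the 2 doses only, 17 of the 46 genes passed, and the other 22 of the 39 tested passed through libraries outside the comparison. Of the 39 genes tested, 1 was called, Ctrb1, which is 2.56% of them, against 13% of all 13866 genes tested (7.13% higher and 5.86% lower), and 0 were called higher by edgeR or DESeq2. In the fit of the 2 doses alone 2 of the 17 were called, Ctrb1 and Pnlip, both lower in 1xAZA, against 5.57% of 13356 genes tested. Because the filter decides both counts, nothing is read from them about the set. Ctrb1 was lower in 1xAZA, with a log2 fold change of −5.25 ± 1.6 (SE) and an adjusted p of 0.0481 (edgeR quasi-likelihood test, Benjamini-Hochberg). Since 1xAZA held 2 counts and 0.1xAZA held 70, the ratio of 0.1xAZA to 1xAZA was 46.7, with a 95% counting interval of 12.5 to 393. The call was lost when any 1 of the 6 libraries compared was left out (adjusted p 0.0654 to 0.19), with DESeq2 (0.231) and with the trend in GC content and length removed (0.104). It was lost as well without SD sample 4 (0.0515), a library outside the comparison. Without MASLD sample 4, Ctrb1 (adjusted p = 0.0117) and Pnlip were both called.

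Over all 46 genes, tested or not, 17 were higher and 29 lower in 1xAZA on the scale of log2(mean CPM + 0.1), with a median difference of −0.15, against 0.01 over all 12554 protein-coding genes tested. That median was smaller than the standard deviation between libraries of the set's median level (0.368). At an unadjusted p under 0.05 there were 5 genes, Cpa1, Ctrb1, Pnlip, Sprr1a and Tinag, all lower in 1xAZA. The log2 fold changes were −4.60 ± 1.97 for Cpa1, −4.43 ± 1.75 for Pnlip and −2.67 ± 1.25 for Sprr1a. The largest positive log2 fold changes were those of Pbk (1.58 ± 0.95), Als2cr12 (1.36 ± 0.75), Slc27a3 (0.74 ± 0.63), Tmem171 (0.73 ± 1.02) and Far2 (0.56 ± 0.64), each with its SE and none of which passed. The standard error was 0.657 for the median gene of the set, against 0.182 for the median of all genes tested, so for the median gene a change of 1 log2 unit or less was not detectable at this depth. Without overlap of libraries, 3 genes (Cpb1, Ctrb1 and Pnlip) were lower in 1xAZA than in 0.1xAZA, against 14.5% of all genes tested, and 2 (Mmp7 and Sybu) were higher, against 16.3%.

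**Figure D5:**
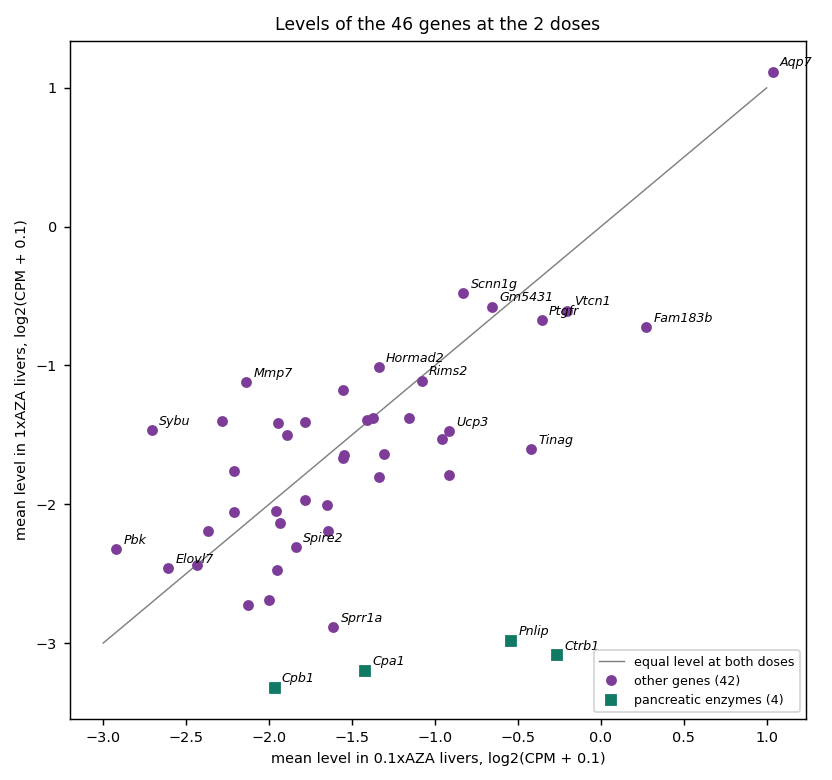
Mean level of each of the 46 genes in 1xAZA (vertical axis) and 0.1xAZA (horizontal axis), both as log2(CPM + 0.1); the line marks equal levels. Squares are the 4 pancreatic enzymes, which lie near the floor in 1xAZA; Aqp7 lies on the line, and Mmp7 and Sybu lie above it.

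Set beside untreated MASLD, on the scale of log2(mean CPM + 0.1), the median gene of the set was lower by 0.92 in 0.1xAZA and by 1.07 in 1xAZA, and 43 of the 46 genes were lower in each. Over all protein-coding genes tested the medians were −0.05 and −0.01, and over the other 2054 genes called higher in MASLD than in SD they were −0.34 and −0.28. To describe how the medians depend on the choice, the rule was run with each MASLD library kept out in turn and its thresholds scaled. The treated groups were then set against the library kept out. With MASLD sample 3 kept out, 62 genes were chosen, and the medians were −0.48 (0.1xAZA) and −0.45 (1xAZA), against −1.10 and −1.22 relative to the libraries that chose them. With MASLD sample 5 kept out, 60 genes gave −0.45 and −0.22, against −1.06 and −1.29. With MASLD sample 4 kept out, 25 genes gave −1.12 and −1.29, against −1.06 and −1.30.

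All 6 of those medians were below 0, but with MASLD sample 3 or 5 kept out, less than 1 in 2 of the log2 difference remained. The 6 medians share the treated libraries and overlapping choices of genes. The library kept out was not set against the treated groups for genes outside the choice. No drop under treatment is therefore read from these medians. Below the library kept out were 42 (0.1xAZA) and 40 (1xAZA) of the 62 genes for sample 3, 40 and 40 of the 60 for sample 5, and 23 and 22 of the 25 for sample 4. By edgeR's test, 8 genes of the set were called lower in 0.1xAZA than in MASLD (Elovl7, Iqgap3, Pbk, Scnn1g, Shc2, Slc27a3, Spire2 and Sprr1a) and 0 were called higher, against 7.09% and 6.08% of all genes tested. The 2 treated groups share the MASLD libraries in this comparison. In 1xAZA 5 were called lower (Elovl7, Shc2, Spire2, Sprr1a and Tinag) and 0 higher, against 1.62% and 1.49%. DESeq2 also called 0 higher at either dose, and at an unadjusted p under 0.05 there was 1 higher in 0.1xAZA, Fam183b, and 0 in 1xAZA. Without MASLD sample 4, the calls in 0.1xAZA were 2 higher (Ctrb1 and Pnlip) and 1 lower (Elovl7), and with no filter 1 was higher (Fam183b) and 10 lower. Every 0.1xAZA library lay below every MASLD library in 20 of the 46 genes, against 18.7% of all genes tested, and every 1xAZA library did in 19, against 14.3%. Between MASLD and SD themselves, 38 of the 39 were called higher and 0 lower, against 15.6% and 13.9%, as the rule requires. Nothing is read from these counts, since each contrast holds libraries of the rule. All 3 MASLD libraries lay above all 6 treated libraries in 15 genes, Scnn1g, Ucp3, Corin and Amn among them, against 5.44% of all genes tested.

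The comparison with SD is bound by the rule as well, and its counts are given as a description. All 6 treated libraries lay above all 3 SD libraries in 19 of the 46 genes, Aqp7, Scnn1g, Tinag, Ucp3 and Corin among them, against 8.16% of all genes tested. Of the 39 genes tested, 18 were called higher in 0.1xAZA and 19 in 1xAZA, against 9.85% and 9.91% of all genes tested, and 0 were called lower in either, against 10.9% and 9.84% (0 also at an unadjusted p under 0.05 and with DESeq2). The choice of genes with few SD counts favours this direction. Other genes were near their SD level, such as Elovl7 with 6 counts in 0.1xAZA and 10 in 1xAZA against 2 in SD, Pbk with 3 in 0.1xAZA against 3 in SD, and Sprr1a with 4 in 1xAZA against 2 in SD. Against the SD floor, Tinag was at least 20.7-fold higher in 0.1xAZA and at least 7.50-fold in 1xAZA, Ucp3 at least 13.7-fold and 7.75-fold, and Spire2 at least 5.67-fold and 3.25-fold. In MASLD alone these bounds were 38.9, 34.4 and 34.4. All of them allow for counting error in SD alone. For Spire2 in 1xAZA, with 13 counts, the test against SD did not pass (adjusted p = 0.0994, edgeR).

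MASLD sample 4 stood apart from the other libraries of its group in this set. It held 1789 counts of the 46 genes, against 1063 in MASLD sample 3 and 819 in MASLD sample 5. It was the library with the most raw counts for 34 of the 46 genes (73.9%), against 54.4% of 2919 other genes with MASLD sums in the same range. A tie went to the lower sample number, and raw counts are not scaled to library size. In CPM, Slc27a3 (0.473 in MASLD sample 3, 0.462 in sample 4) and Als2cr12 (0.424 in sample 5, 0.41 in sample 4) were highest elsewhere. More than 2 in 3 of the MASLD counts came from 1 library in 7 genes (15.2%, against 1.06% of those 2919), each time from MASLD sample 4: Cpb1, Cldn4, Cpa1, Ctrb1, Mmp7, Insyn1 and Pnlip. Both shares rest on the MASLD counts that chose the set, and the rule more easily admits a gene raised by 1 library. The 2919 genes were matched on the MASLD sum alone, and their SD counts were above the limit of the rule. Nothing is therefore read from the differences between these shares. With at least 10 counts required in each MASLD library, 28 genes remained, and with MASLD sample 4 left out and thresholds scaled, 25 genes were found, 24 of them from the 46.

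Markers of bile duct cells moved with that library. A list of cholangiocyte genes summed to 192 CPM in MASLD sample 4, against 68.2 and 66.8 CPM in MASLD samples 3 and 5, 48.8 to 67.8 CPM in 0.1xAZA, 38.0 to 47.8 CPM in 1xAZA and 30.7 to 42.4 CPM in SD. Epcam had 158 counts there, against 39 and 40 in the other MASLD libraries, and Krt7 had 76, against 25 and 15. Outside the set, 15 genes of that list were tested, of which 9 were higher and 0 lower in MASLD than in SD, and 1 was higher and 1 lower in 1xAZA than in 0.1xAZA. The shares over all genes tested were 15.6% and 13.9% in MASLD, and 7.13% and 5.86% between the doses. Gpnmb, a gene of lipid-loaded macrophages, had 468 counts in MASLD sample 4, against 147 and 94. The list of lipid-associated macrophage genes that holds Gpnmb summed to 7210 CPM in MASLD sample 4, against 7720 and 7600 CPM in MASLD samples 3 and 5. In SD it summed to 8060 to 11300 CPM. Yet 12 of its 19 tested genes outside the set were higher and 2 lower in MASLD than in SD (edgeR). The sum thus does not follow most genes of the list, and nothing is read from it about MASLD sample 4. The part of these cell types in the levels of the set was not tested.

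Some of the 46 genes belong to lists of known pathways, whose other genes give their setting. Over all genes tested, 15.6% were higher and 13.9% lower in MASLD than in SD. Between the doses, 7.13% were higher and 5.86% lower in 1xAZA than in 0.1xAZA. Of 37 tested genes of fatty acid oxidation and PPARA targets outside the set (which holds Aqp7, Fabp3 and Ucp3 of that list), 23 were higher and 0 lower in MASLD than in SD by edgeR, with a median log2 fold change of 0.70; DESeq2 called 2 lower, and 2 had an unadjusted p under 0.05 in that direction. Between the doses 2 were higher and 3 lower in 1xAZA, near the shares over all genes tested, with a median of −0.02. Of 28 genes of lipid droplets and glycerol, 18 were higher and 1 lower in MASLD, and 1 higher and 4 lower in 1xAZA than in 0.1xAZA. Among aquaporins, 5 other genes were tested, and 1 was higher and 0 lower in MASLD, too few to set apart from the shares over all genes tested. Aqp9, the main glycerol channel of hepatocytes, had 15003 to 16105 counts in MASLD and 14401 to 15771 in SD, and Aqp3 had at most 9 counts in any library of MASLD or 0.1xAZA.

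Of 17 tested genes of basement membrane and the TINAG family, 11 were higher and 1 lower in MASLD than in SD and 0 passed between the doses with edgeR or DESeq2 (0 also at an unadjusted p under 0.05). Of 17 actin nucleators of the Spire and formin families, 4 were higher and 1 lower in MASLD, and 4 were higher and 0 lower in 1xAZA than in 0.1xAZA. Uncoupling genes other than Ucp3 gave 4 higher and 1 lower of 10 in MASLD; Ucp2 was read in every library, and Ucp1 had 0 counts in all 12. The shares over all genes tested, given above, apply to these lists too. Over the 12 libraries, the protein-coding genes outside the set with a pattern most like that of Aqp7, by Pearson correlation of log2(CPM + 0.1), were Osbpl3 (0.99), Vnn1 (0.98) and Uap1l1 (0.979). Within the set they were Chil3 (0.897), Corin (0.895) and Myo15b (0.891). These values describe a pattern that the step from SD to the diet dominates.

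The thresholds cut through a continuous range. Just inside the SD threshold, with 6 counts, lay Ptgfr, Ckap2, Ccn5, Iqgap3, Vtcn1, Stc2, Amn and Bex4, and just outside it, with 7 counts, lay Pnpla5 (372 counts in MASLD), Tmem136 (109) and Tmem45a (64). Just inside the MASLD threshold were Cenpe (40 counts), Als2cr12 and Cpb1 (41 each), and just outside were Zfp449 and Slc22a12 (39 each) and Igsf9 (38). The 46 genes lay on many chromosomes, with 9 on chromosome 3 and 6 on chromosome 11, and besides the pair of Mmp genes only Vtcn1 and Mab21l3, 916154 bases apart, lay within 1 Mb of each other. For 5 genes a neighbour on the other strand overlaps and is read far more: Fabp3 (Zcchc17), Far2 (Ergic2), Myo15b (Recql5), Kif4 (Pdzd11) and BC035947 (Mogat1). How strand was counted is not given in the sources used here, so their counts are uncertain. Mogat1 itself had 1076 counts in MASLD, 754 in 0.1xAZA, 592 in 1xAZA and 106 in SD, in the same order as BC035947 with 51, 41, 24 and 0.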

How the data were processed

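Per the labels' protocols, stranded libraries for paired-end RNA-seq were made from polyadenylated mouse liver RNA. Reads were aligned to mm10 with STAR 2.7.3a, per the submitters' processing notes; how reads were then counted, with which strand setting and annotation, is not given in the sources used here. What the authors deposited is 1 table of whole-number counts for 55471 gene IDs and 12 libraries, with 0 columns outside the samples. The library named 1xAZA-8 has the title of replicate 5 and is called 1xAZA sample 5.

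Gene types, positions and lengths came from GENCODE vM21, which matched 55230 IDs (the other 241 held 0.00328% of counts). With edgeR 4.0.16 in R 4.3.3, 13866 genes passed filterByExpr by group, libraries were scaled by TMM, and the 12 libraries entered 1 quasi-likelihood fit with a coefficient per group, tested two-sided with Benjamini-Hochberg adjustment over all genes tested (threshold 0.05). Every adjusted p comes from it unless another tool is named. SE is the standard error of a log2 fold change. CPM are counts scaled to the TMM-adjusted library size. Folds against 0 SD counts use a floor of 3 counts over the SD group and take the counts of the other group as read. They allow for counting error in SD alone. Ratios with 1 to 3 counts have exact 95% binomial intervals, which cover counting error only. The scripts were tested on simulated counts.

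The genes, the lists, the functional groups and the rule for naming genes (4 genes given with the set, the 10 of highest level under treatment, the 5 highest and 5 lowest dose differences, every gene called between the doses, list members and genes at the thresholds) were chosen with earlier results of these data known. Other genes are named to account for the whole set, chosen after their values were seen. Alternatives were RLE scaling, DESeq2 1.42.0, other filters, fits of 2 groups, a replicate block, other thresholds and pseudocounts, and leaving out each library. A trend in GC content and length, a block by library name, and the MASLD library kept out were added after seeing the data. That trend took from 0.279% (SD sample 4) to 20.5% (0.1xAZA sample 3) of the variance of a library's deviations from the gene means. Same-numbered libraries of MASLD and SD had correlations of −0.0454, −0.115 and −0.164 in their deviations from the group means. Same-numbered pairs with a treated library ran from −0.196 to 0.0774. These values show no pairing by number, but with 3 libraries per group they cannot exclude a shared batch.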

Additional observations from a re-analysis of the deposited data

Results flagged for a closer look

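Ctrb1, a pancreatic chymotrypsinogen, was the gene of the set whose level differed between the doses by the test of that difference (log2 fold change of 1xAZA over 0.1xAZA −5.25 ± 1.6 (SE), adjusted p = 0.0481, edgeR). It was lower in 3 of 3 libraries of 1xAZA, which held 0, 0 and 2 counts, than in those of 0.1xAZA, which held 34, 17 and 19. The other acinar genes of the set, and those outside it with any count apart from Cela1 and Cela2a, had them mainly in MASLD sample 4 and 0.1xAZA; the sum of the list without Cela1 was 4, 6 and 12 in 1xAZA and 155, 46 and 73 in 0.1xAZA. The adjusted p was between 0.0654 and 0.19 when 1 of the 6 libraries was left out, and 0.0515 without SD sample 4. The cause was not tested.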

How the results depend on the processing

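Genes called: in 1xAZA against 0.1xAZA, 1 gene was called, against 5 with no filter, 2 in a fit of the 2 groups (17 tested), 0 with a filter at a mean of 1 CPM (where 1 gene of the set is left), 0 with the GC and length trend removed, 0 under a replicate block and 0 under a block by library name; leaving out 1 library gave 0 to 2 (2 without MASLD sample 4; 0 without SD sample 4, 0.1xAZA sample 3 or 4, or any 1 of 1xAZA). In 0.1xAZA against MASLD, 8 became 2 with DESeq2, 3 with the trend removed, and 0 with the 1 CPM filter and under either block (2 to 8 with 1 library left out: 2 without MASLD sample 3 or 0.1xAZA sample 1; 3 without MASLD sample 4, of which Ctrb1 and Pnlip were higher; 3 without MASLD sample 5 or 0.1xAZA sample 3; 4 without 1xAZA sample 4). In 1xAZA against MASLD, 5 became 15 with no filter, 12 in a fit of the 2 groups, and 0 with the 1 CPM filter and under either block (0 to 7: 0 without MASLD sample 3 or 4 or 1xAZA sample 2 or 4, and 3 without 1xAZA sample 5). In 0.1xAZA against SD, 18 became 11 under either block, 7 of 7 tested in a fit of the 2 groups and 1 at 1 CPM (12 to 19; 12 without SD sample 4). In 1xAZA against SD, 19 became 12 under the replicate block, 2 under the block by library name, 5 of 5 tested in a fit of the 2 groups and 1 at 1 CPM (11 to 20; 11 without SD sample 4). In MASLD against SD, 38 became 1 at 1 CPM (30 to 43).

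Levels: with at most 3 SD counts 27 genes were found, with at least 80 MASLD counts 12, with at least 10 in each MASLD library 28, and with 1 library left out 25 to 71. At least 20 counts, in place of 40, were held by 26 genes in 0.1xAZA and 28 in 1xAZA (9 to 13 and 9 to 12 for 40 counts with 1 library left out). The median log2 difference from MASLD in 1xAZA was −0.53 with a pseudocount of 0.5 CPM; with 1 library left out it ran from −1.28 to −0.66, that in 0.1xAZA from −1.11 to −0.77, and that between the doses from −0.36 to −0.08. With MASLD sample 3 or 5 kept out of the choice, the medians were −0.48 and −0.45 (0.1xAZA) and −0.45 and −0.22 (1xAZA). The sign of the dose difference turned for Aqp7 (−0.45 to 0.49 with 1 library left out, −0.0010 without 0.1xAZA sample 4, −0.45 without 1xAZA sample 5) and Scnn1g (−0.43 to 0.88, −0.05 without 0.1xAZA sample 1, −0.43 without 1xAZA sample 4). Fewer tested genes bound the 1 CPM counts and those of the 2-group fits against SD; the cause of the others was not tested. The low counts limit all single-gene statements.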

Other observations

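Genes of other types that met both count thresholds numbered 14, of which 11 were long intergenic noncoding RNAs. H19, an imprinted noncoding RNA of fetal liver, had 12, 27 and 10 counts in MASLD, 0, 0 and 1 in 0.1xAZA, 3, 8 and 6 in 1xAZA and 0, 0 and 1 in SD. Every 1xAZA library thus lay between the MASLD and 0.1xAZA libraries, and H19 did not pass the filter on low counts and was not tested. Gm39929 had 30, 26 and 31 counts in MASLD, 22, 9 and 19 in 0.1xAZA, 16, 16 and 15 in 1xAZA and 0 in every SD library. Gm28548 had 15, 19 and 16 counts in MASLD, 29, 18 and 26 in 0.1xAZA, 18, 20 and 9 in 1xAZA and 1, 3 and 0 in SD.

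An antisense transcript over Ucp3, Gm10603, held 21 counts in MASLD, 28 in 0.1xAZA, 4 in 1xAZA and 0 in SD, while Ucp3 itself held 122, 41, 31 and 0 in that order. How strand was counted is not given in the sources used here, so the counts of this pair may not be separate.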
